A study of Mus musculus with 12 samples.

Results

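The choroid plexus genes described here were Ttr, Folr1, Kl, Clic6, Kcnj13, Ecrg4, Wfikkn2, Igfbp2, Slc13a4 and Calml4, 10 of the 19505 genes named on the arrays. They were taken by symbol, partly because their signal was higher in arrays from mice deficient in GnT-IX, so that difference is described below without a test. Each of the 10 genes was read by 1 transcript cluster, a set of probes for 1 gene, and values are log2 signals.

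The study profiled cells taken from brain white matter with beads against GLAST, the astrocyte glutamate transporter, by microarray in 12 samples. Wild-type C57BL/6 mice were analysed after 0, 3 and 12 weeks on a diet with 0.2% (w/w) cuprizone, a copper-binding compound under which oligodendrocytes die and myelin is lost, and GnT-IX-deficient C57BL/6 mice after 12 weeks of the same diet. Mice were 8 to 12 weeks old when feeding started, and each of the 4 groups had 3 biological replicates with 1 array each. GnT-IX is a glycosyltransferase of the brain encoded by Mgat5b. The labels name neither the allele behind the deficiency nor whether animals were pooled. Deficient mice at 0 or 3 weeks were not analysed here, so a genotype difference present without the diet and one that arose on it cannot be told apart.

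The choroid plexus is a folded epithelium in the brain ventricles that makes cerebrospinal fluid and controls what passes from blood into it. Its cells carry ion channels and transporters on the face towards the fluid and secrete carrier and binding proteins. Transthyretin, the product of Ttr, is its best known secreted protein, carrying thyroxine and, with retinol-binding protein, vitamin A. Astrocytes are another cell type, and the plexus lies near periventricular white matter together with ciliated ependymal cells and stromal fibroblasts.

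As the 10 genes were high in the same arrays, the sequences before their start sites were searched for letters shared between them. RefSeq start regions on GRCm38.p6 were used for 7 of the 10 genes, in 8 windows of 250 bases. The chromosome that holds Ttr was left out of the search, for every gene on it. Folr1 and Clic6 had no usable window. Both strands were searched for CCAAT, the box read by NF-Y, for TATAAA, and for TAATCC, a core read by OTX factors. They were also searched for an arm of the X-box read by RFX factors (GTTGC, any base, A, any base, GG). The windows that held a match are shown 5′ to 3′ on the strand of the gene, with the matches in capitals. Kcnj13 lies at chr1:87394730-87394979 on the minus strand, Slc13a4 at chr6:35308127-35308376 on the minus strand and Ecrg4 at chr1:43730352-43730601 on the plus strand.
Kcnj13: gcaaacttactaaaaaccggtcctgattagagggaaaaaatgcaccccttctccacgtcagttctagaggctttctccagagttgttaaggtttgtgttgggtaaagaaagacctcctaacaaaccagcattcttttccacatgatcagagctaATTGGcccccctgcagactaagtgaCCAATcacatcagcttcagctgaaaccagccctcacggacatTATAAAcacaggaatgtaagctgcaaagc
Slc13a4: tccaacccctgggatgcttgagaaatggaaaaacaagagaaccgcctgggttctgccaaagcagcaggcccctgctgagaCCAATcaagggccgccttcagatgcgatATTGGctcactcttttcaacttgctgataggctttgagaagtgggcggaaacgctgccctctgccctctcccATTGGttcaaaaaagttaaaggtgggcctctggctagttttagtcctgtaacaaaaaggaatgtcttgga
Ecrg4: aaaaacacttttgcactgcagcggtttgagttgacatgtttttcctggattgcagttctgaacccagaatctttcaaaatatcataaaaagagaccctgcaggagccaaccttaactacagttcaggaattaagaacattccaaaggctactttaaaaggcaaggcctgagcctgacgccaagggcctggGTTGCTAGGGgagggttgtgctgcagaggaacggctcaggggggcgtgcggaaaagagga
CCAAT was found in 2 of the 8 windows, those of Kcnj13 and Slc13a4, and in 33.8% of all 32851 windows searched. It began 96 and 71 bases before the start of Kcnj13 and 170, 142 and 70 bases before that of Slc13a4, counted to the first base of the match on the strand shown, where a match on the other strand reads ATTGG. The X-box letters stood in the window of Ecrg4 only, 60 bases before the start, against 1.58% of all windows. TATAAA stood in that of Kcnj13 only, 29 bases before the start, against 12.4% of all windows, and TAATCC stood in none of the 8 against 6.25% of all windows. No motif was thus shared by most of the 7 genes searched, and the matches overlapped in no case.

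Mgat5b, the gene of the missing enzyme, was lower in all 3 deficient arrays than in any wild-type array. Its log2 signal was 5.72, 5.57 and 5.74 at 0 weeks, 5.78, 6.49 and 5.85 at 3 weeks, 5.96, 5.88 and 5.57 at 12 weeks, and 3.70, 4.19 and 4.06 in the deficient arrays, a fall of 1.82 against wild-type at 12 weeks (SE 0.21, limma adjusted p = 0.00159). The antigen gene of the selection, Slc1a3, lay at 6.49 to 8.84 over the 12 arrays and the water channel gene of astrocytes, Aqp4, at 6.87 to 8.55, with differences of -0.03 (SE 0.27, limma adjusted p = 0.986) and -0.18 (SE 0.27, limma adjusted p = 0.909) between the genotypes. Gfap, the astrocyte intermediate filament, lay at 5.90 to 9.26 and differed by -0.45 (SE 0.46, limma adjusted p = 0.860). Array medians were 5.38 to 5.45, lower quartiles 3.73 to 3.85, and 3 arrays in a group limit the precision of every value. Genes of mature oligodendrocytes, the cells that cuprizone kills, averaged 8.84 to 10.16 in the wild-type and 8.85 to 9.60 in the deficient arrays.

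Every one of the 10 genes had its highest signals in replicates 1 and 2 of the deficient group, apart from Slc13a4, where replicates 1 and 3 were the highest. Averaged over the 10 genes, the log2 signal was 5.06 to 6.59 in the 9 wild-type arrays and 8.98, 8.19 and 6.74 in deficient replicates 1, 2 and 3. Against the mean of the 3 wild-type arrays at 12 weeks, replicate 1 was higher by 2.04 to 5.03 (median 3.21), replicate 2 by 0.50 to 4.65 (median 2.51), and replicate 3 differed by -0.40 to 2.17 (median 1.06). Replicates 1 and 2 each exceeded all 9 wild-type arrays in 10 of 10 genes, as did 10.4% and 13.6% of all genes on those arrays. Replicate 3 did so in 5 of 10, against 12.6% of all genes.

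**Figure D1:**
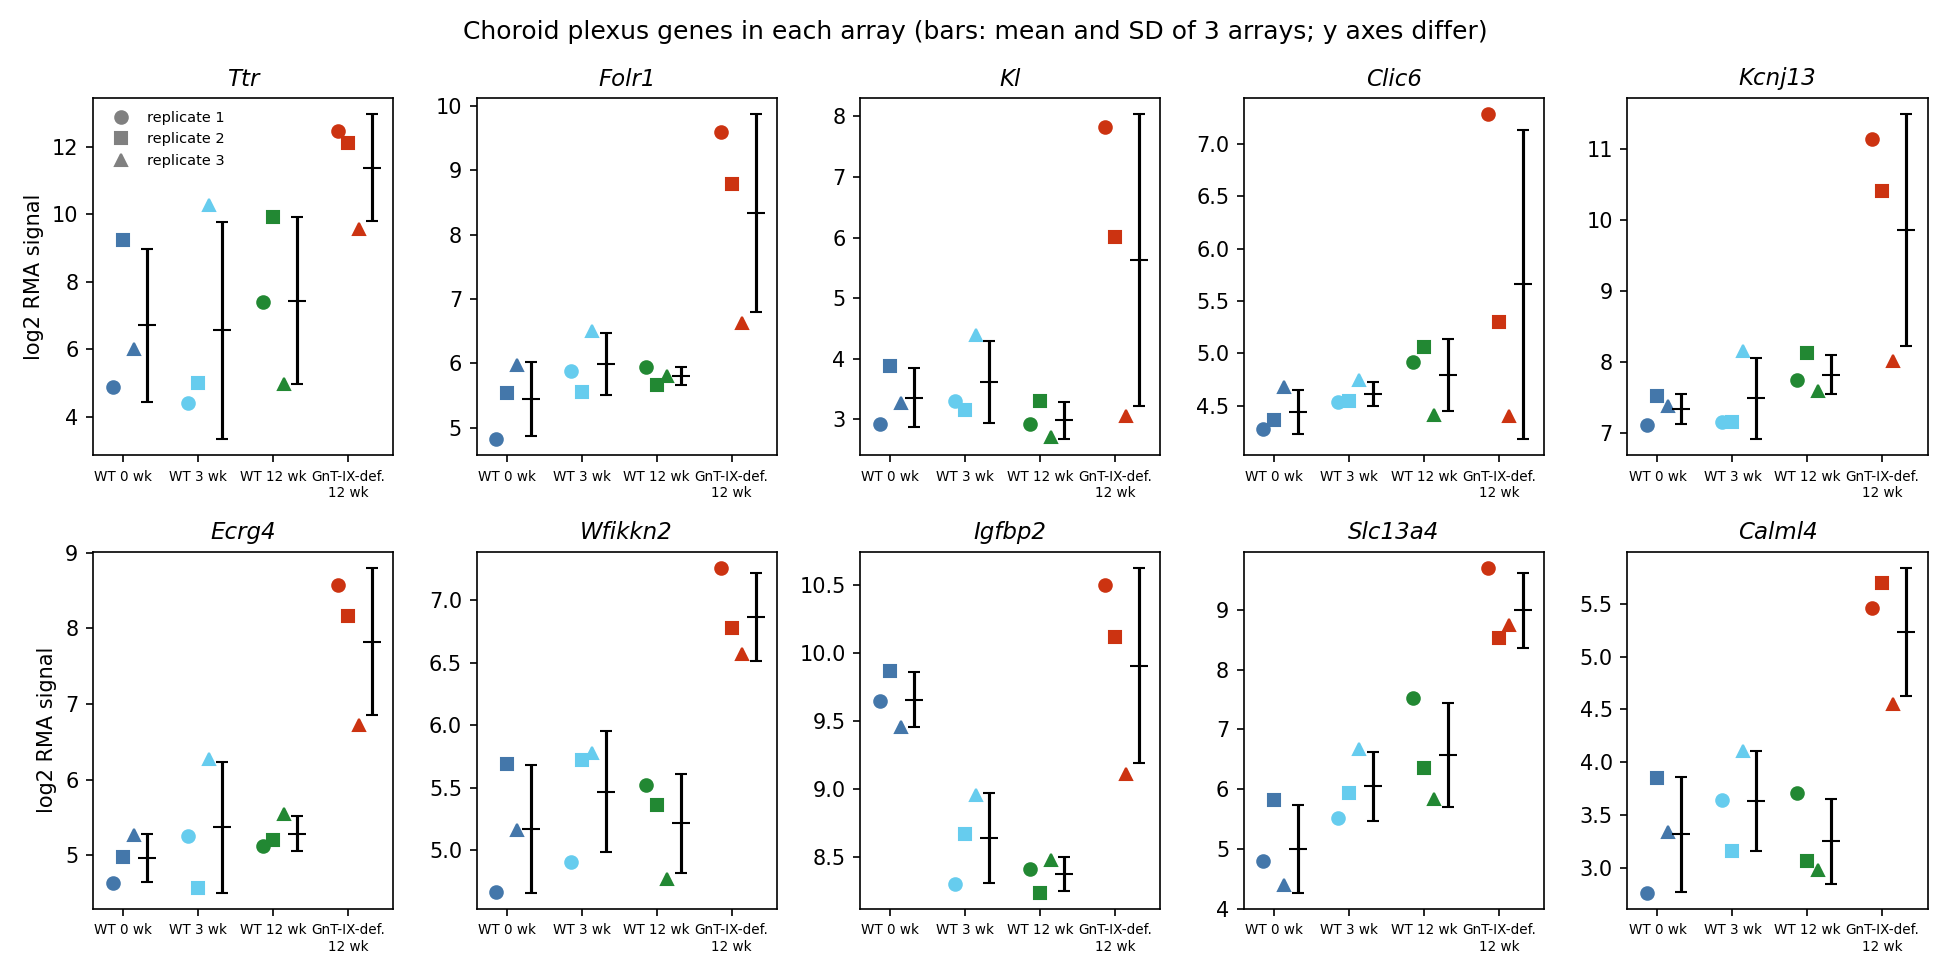
Log2 signal of the 10 choroid plexus genes (y axis, a separate scale for each gene) in the 4 groups (x axis), with 1 point per array, marker shape for the replicate number, and black bars for the mean and SD of 3 arrays. Deficient replicates 1 and 2 lie above all wild-type arrays for every gene, and replicate 3 falls among the wild-type arrays for Ttr, Kl, Clic6, Kcnj13 and Igfbp2.

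The carriers and receptors of blood-borne molecules are taken first. Ttr was at 4.88, 9.24 and 6.02 at 0 weeks, 4.42, 5.02 and 10.26 at 3 weeks, 7.40, 9.92 and 4.99 at 12 weeks, and 12.47, 12.09 and 9.56 in deficient mice. It was the most variable of the 10 genes in wild-type mice, with a range of 5.84 over the 9 arrays and 1 array at 9.24 or more in each group. The deficient mean of 11.37 ± 1.58 (SD, n = 3) stood 3.94 (SE 1.46) above the 12-week mean of 7.44 ± 2.47 (SD, n = 3), and the groups overlapped, since deficient replicate 3 lay below wild-type replicate 2. The value of 12.47 was the top of its array, where signals can saturate, and whether it did was not tested.

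Folr1 encodes the folate receptor that moves folate into cerebrospinal fluid. Its signal was 4.83, 5.54 and 5.97 at 0 weeks, 5.89, 5.56 and 6.51 at 3 weeks, 5.94, 5.66 and 5.81 at 12 weeks, and 9.59, 8.79 and 6.63 in deficient mice. All 3 deficient arrays were above all wild-type arrays, replicate 3 by only 0.12 over the highest of them. The difference of 2.53 (SE 0.53) is a ratio of 5.79 on the linear scale.

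Kl encodes Klotho, a membrane and shed protein that serves as co-receptor for the hormone FGF23. It was at 2.92, 3.88 and 3.27, then 3.30, 3.15 and 4.39, then 2.93, 3.31 and 2.71 in wild-type mice at 0, 3 and 12 weeks, and at 7.82, 6.01 and 3.05 in deficient mice. Replicate 3 thus lay within the wild-type values, 1.34 below the highest, while replicates 1 and 2 stood apart. In 7 of the 9 wild-type arrays Kl was below the lowest lower quartile of the arrays, so its wild-type level is dim and the size of the difference, 2.64 (SE 0.77), is uncertain.

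The channels and transporters followed. Kcnj13 encodes the inward rectifier potassium channel Kir7.1 of the fluid-facing membrane. Its values were 7.11, 7.52 and 7.38 at 0 weeks, 7.16, 7.16 and 8.15 at 3 weeks, 7.75, 8.12 and 7.59 at 12 weeks, and 11.14, 10.41 and 8.02 in deficient mice. Replicates 1 and 2 were above all wild-type arrays and replicate 3 was 0.13 below the highest of them, with a group difference of 2.04 (SE 0.54).

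Slc13a4, a sodium-coupled sulfate transporter, was the gene in which replicate 3 stood out most. It was at 4.80, 5.82 and 4.39 at 0 weeks, 5.52, 5.94 and 6.67 at 3 weeks, 7.52, 6.35 and 5.83 at 12 weeks, and 9.70, 8.53 and 8.74 in deficient mice. The lowest deficient array, replicate 2, lay above the highest wild-type array, and the mean difference was 2.42 (SE 0.44), a ratio of 5.36.

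Clic6, of the chloride intracellular channel family, had the smallest difference of the 10 genes, 0.86 (SE 0.47). It was at 4.28, 4.37 and 4.68, then 4.54, 4.55 and 4.75, then 4.92, 5.06 and 4.41 in wild-type mice, and at 7.28, 5.30 and 4.40 in deficient mice. Only replicate 1 stood well clear of the wild-type values, and replicate 3 was among the lowest.

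The secreted regulators came next. Ecrg4 encodes augurin, a precursor of secreted peptides. It was at 4.64, 4.98 and 5.27 at 0 weeks, 5.26, 4.57 and 6.28 at 3 weeks, and 5.12, 5.20 and 5.55 at 12 weeks. In deficient mice it was at 8.58, 8.17 and 6.73. Its groups did not overlap and its difference was 2.54 (SE 0.43).

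Wfikkn2 encodes a secreted protein with protease inhibitor domains that binds the growth factors GDF8 and GDF11. It was at 4.67, 5.69 and 5.16, then 4.91, 5.72 and 5.78, then 5.52, 5.36 and 4.77 in wild-type mice, and at 7.26, 6.78 and 6.57 in deficient mice. This was the tightest of the 10 deficient groups, with an SD of 0.35 around a mean of 6.87, and it stood 1.65 (SE 0.30) above wild-type mice at 12 weeks.

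Igfbp2 encodes a binding protein for insulin-like growth factors that astrocytes also make. It was at 9.65, 9.87 and 9.46 at 0 weeks, 8.30, 8.67 and 8.96 at 3 weeks, 8.41, 8.24 and 8.48 at 12 weeks, and 10.50, 10.12 and 9.11 in deficient mice. The deficient arrays were all above the 12-week ones, by 1.53 (SE 0.28) on average. Set against wild-type mice at 0 weeks, replicate 3 was lower than every array and replicates 1 and 2 were higher.

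Calml4, a calmodulin-like protein of microvilli, was at 2.77, 3.85 and 3.34, then 3.64, 3.16 and 4.11, then 3.71, 3.07 and 2.98 in wild-type mice, and at 5.46, 5.69 and 4.55 in deficient mice. It was dim in wild-type mice, below the lowest lower quartile in 7 of 9 arrays, and all 3 deficient arrays were above them. The difference was 1.98 (SE 0.33).

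Over the 10 genes the median genotype difference was 2.23, against -0.01 over all genes. The 3 deficient arrays lay above the 3 wild-type arrays of 12 weeks in 6 of the 10 genes, against 5.27% of all genes, and above all 9 wild-type arrays in 5 of 10, against 1.23%. The choice of genes drew on this contrast, so nothing is read from these counts.

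The comparisons among wild-type groups took their means from wild-type arrays, but the shared estimate of the spread drew on the deficient arrays too. Some of the genes varied most in those arrays, so the SE can exceed that of the compared arrays alone. Between 12 and 0 weeks it was 0.77 for Kl and 0.54 for Kcnj13, against 0.25 and 0.19 with only those 2 groups. All 10 genes had a lower SE that way, and Slc13a4 changed least, from 0.44 to 0.42. After 3 weeks of cuprizone no choroid plexus gene rose or fell past the threshold. In limma 0 of 10 were called, where 3.24% of all genes were, and 2 had an unadjusted p under 0.05, against 16.1% of all genes. These were Igfbp2, lower by 1.02 (SE 0.28, limma adjusted p = 0.0646), and Slc13a4, at 6.04 ± 0.58 against 5.0 ± 0.74 (SD, n = 3), a difference of 1.04 (SE 0.44, limma adjusted p = 0.254). The Igfbp2 arrays at 3 weeks were all below those at 0 weeks, as for 10.5% of all genes, and the difference passed with array weights (limma adjusted p = 0.0319) or with only the 6 arrays compared (limma adjusted p = 0.0311), within a range of 0.0311 to 0.239 over all alternatives. The median over the 10 genes was 0.28, against -0.02 over all genes.

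After 12 weeks Igfbp2 was the 1 of 10 that changed, where 2.64% of all genes were called and 0.523% called lower. An unadjusted p under 0.05 was seen for 2 of the 10, Igfbp2 and Slc13a4, and for 15.1% of all genes. It fell by 1.28 from 9.66 ± 0.21 to 8.38 ± 0.12 (SD, n = 3, SE of the difference 0.28, limma adjusted p = 0.0251), and all 3 arrays at 12 weeks were below all 3 at 0 weeks, as for 9.95% of all genes. The call was lost on leaving out any 1 of 4 arrays: replicate 1 (limma adjusted p = 0.0974) or 2 (0.126) at 0 weeks, and replicate 2 (0.127) or 3 (0.0610) at 12 weeks. Over all alternatives the adjusted p was 0.00181 to 0.127. The arrays of 12 weeks are also the low side of the genotype difference on which the choice of genes drew, so this fall is not independent of that choice. Astrocyte genes moved beside it, their list of 15 averaging 9.34 ± 0.17 at 0 weeks, 8.61 ± 0.22 at 3 weeks and 8.99 ± 0.24 at 12 weeks (SD, n = 3), and 15 genes of microglia and macrophages averaged 5.10 ± 0.27, 6.89 ± 1.01 and 7.64 ± 0.51 (SD, n = 3). Their part in the fall of Igfbp2 was not tested.

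Slc13a4 was at 6.57 ± 0.87 after 12 weeks, above 5.0 ± 0.74 at 0 weeks (SD, n = 3) with no overlap, as was Kcnj13 and 10.8% of all genes, but the difference of 1.56 (SE 0.44) missed the threshold (limma adjusted p = 0.0812, range 0.0594 to 0.258). Fibroblast genes, a list of 19, averaged 5.47 ± 0.18 at 0 weeks, 5.45 ± 0.22 at 3 weeks, 5.71 ± 0.04 at 12 weeks and 5.95 ± 0.06 in deficient mice (SD, n = 3), and the part of such cells in Slc13a4 was not tested. For the other 8 genes the differences between 12 and 0 weeks lay between -0.37 (Kl, SE 0.77) and 0.72 (Ttr, SE 1.46), none called. Between 12 and 3 weeks 0 of 10 were called in limma, where 0.082% of all genes were, and 0 had an unadjusted p under 0.05, against 11.4% of all genes. Their differences ran from -0.63 (Kl, SE 0.77) to 0.87 (Ttr, SE 1.46). No untreated mice kept for 3 or 12 weeks were analysed here, so diet and age cannot be told apart.

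Within wild-type mice the genes also varied from array to array. Replicate 3 of the 3-week group had the highest wild-type signal in 7 of the 10 genes (Ttr, Folr1, Kl, Kcnj13, Ecrg4, Wfikkn2 and Calml4), where it was the highest for 12.4% of all genes. Replicate 2 of the 0-week group was the highest of its group in 7 of 10, where it was for 31.1% of all genes. In these 9 arrays all 9 relations of the other genes to Ttr had a positive r, from 0.0811 for Igfbp2 to 0.862 for Kcnj13.

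The relation of Kcnj13 to Ttr was the 1 of 9 that passed, with Pearson r = 0.862 (exact permutation p = 0.00417, adjusted over the 9 relations 0.0375), whereas Spearman rho = 0.828 did not (exact permutation p = 0.00861, adjusted 0.0775). The 2 arrays farthest from the median of Ttr were replicate 3 at 3 weeks and replicate 2 at 12 weeks. Without them r was 0.626 (exact permutation p = 0.135, n = 7), and the call was lost. Leaving them out also narrows the range of Ttr, so whether the relation depends on them cannot be told. On differences from the group means, r was 0.941 for Kcnj13 and 0.963 for Kl. Kl had r = 0.72 and rho = 0.667 on the undivided values (exact permutation p = 0.0231 and 0.0589, adjusted 0.104 and 0.174), and r = 0.637 without the 2 arrays. For Ecrg4 the r of 0.472 (rho 0.233, exact permutation p = 0.203 and 0.552, adjusted 0.261 and 0.621) went to -0.00851 without them. The others were Wfikkn2 at r = 0.672 and rho = 0.733 (exact permutation p = 0.0545 and 0.0311, adjusted 0.164 and 0.14), Clic6 at 0.552 and 0.617, Calml4 at 0.543 and 0.55, Slc13a4 at 0.516 and 0.6, and Folr1 at 0.407 and 0.317. The adjusted exact permutation p of the last 4 was 0.234 to 0.347 for r and 0.174 to 0.527 for rho. For Igfbp2 rho was 0.05, with adjusted p of 0.821 for r and 0.912 for rho (exact permutation). Over all 45 pairs of the 10 genes, r was positive in 40, with a median of 0.47 and a range of -0.576 to 0.862, a description of 9 arrays that share their RNA preparation within each sample.

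**Figure D2:**
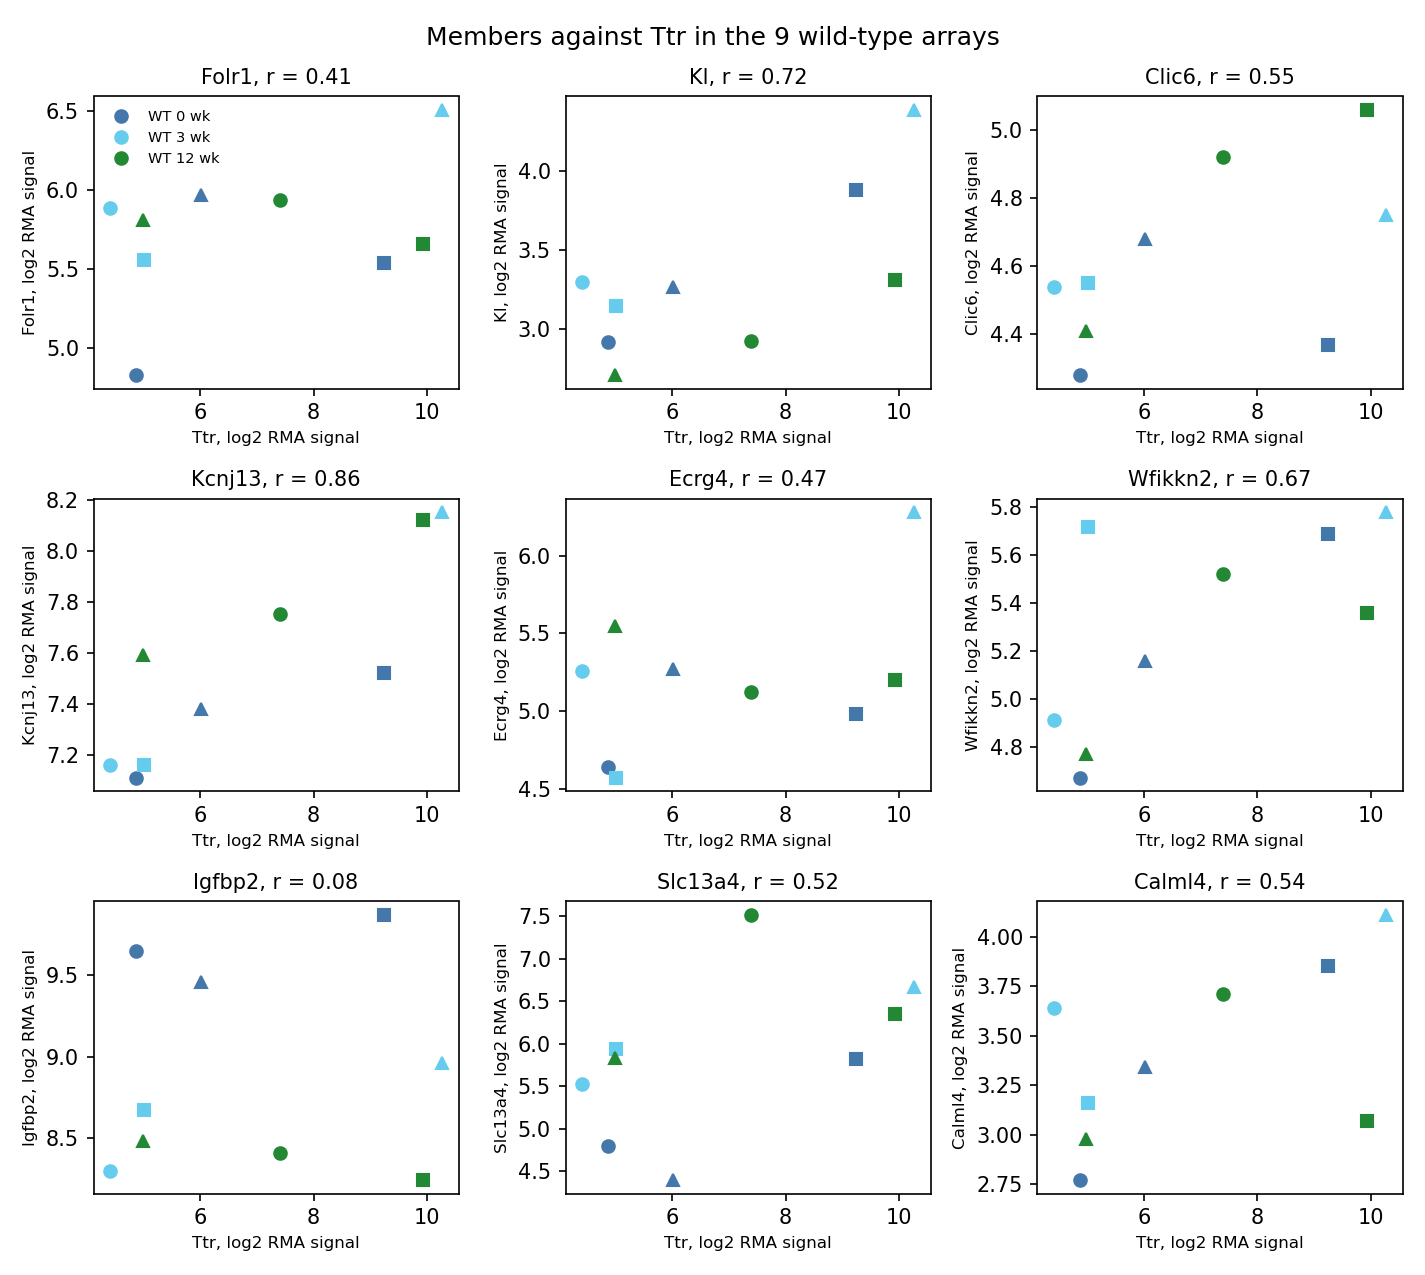
Log2 signal of the 9 other genes (y axes, separate scales) against that of Ttr (x axis) in the 9 wild-type arrays, coloured by weeks of diet and with circle, square and triangle for replicates 1, 2 and 3; r is Pearson's. The light blue triangle, replicate 3 at 3 weeks, is at the upper right for most genes. Igfbp2 is higher in the arrays of 0 weeks than in those of 3 and 12 weeks, which overlap, and is not ordered by Ttr.

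Other genes of the choroid plexus epithelium were then read from a list of 45, of which 41 were measured. Many were high in the same deficient arrays. Their mean was 5.31 to 5.79 in the wild-type arrays and 7.12, 6.34 and 5.67 in deficient replicates 1, 2 and 3, so replicate 3 lay within the wild-type range. Replicates 1, 2 and 3 exceeded all 9 wild-type arrays in 31, 25 and 8 of the 41, against 10.4%, 13.6% and 12.6% of all genes, and all 3 did so in 6, against 1.23%. In bulk RNA, more cells of a type and more RNA per cell cannot be told apart. In limma 0 of the 41 were called between the genotypes, where 0.0256% of all genes were, while 23 were higher and none lower at an unadjusted p under 0.05, where 3.65% of all genes were higher, and 39 had a positive difference. The median difference was 0.87, and the groups of 12 weeks did not overlap in 14 of 41 (34.1%), all higher, against 5.27% of all genes. This list and those below were chosen with earlier results of these data known. Many of the 41 were high in the same arrays, so they are not separate observations. Their counts between the genotypes are therefore a description.

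Otx2, a transcription factor of the plexus, had the largest difference of the 41. It was at 4.08, 6.15 and 4.98 at 0 weeks, 5.48, 5.96 and 7.07 at 3 weeks, 5.77, 4.62 and 4.30 at 12 weeks, and 8.30, 7.61 and 6.59 in deficient mice, a difference of 2.60 (SE 0.54, limma adjusted p = 0.163). Htr2c, the serotonin receptor of the plexus, lay at 4.46 to 6.54 in wild-type mice and at 9.29, 7.15 and 5.52 in deficient mice. Aqp1, the water channel of its fluid-facing membrane, lay at 4.25 to 5.71 and at 7.55, 6.16 and 4.67, and Kcne2, a potassium channel subunit, at 2.03 to 3.19 and at 4.95, 4.64 and 2.62. Sostdc1, a secreted antagonist of BMP and Wnt signals, lay at 5.64 to 6.40 and at 8.32, 7.49 and 5.98. In Htr2c, Aqp1, Kcne2 and Sostdc1 deficient replicate 3 fell among the wild-type arrays.

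Some genes of the list had differences near 0. The roof plate and plexus factors Lmx1a and Msx1 differed by 0.23 (SE 0.20, limma adjusted p = 0.839) and 0.02 (SE 0.20, limma adjusted p = 0.987). Slc39a12, a zinc transporter, had the lowest difference, -0.11 (SE 0.23). Enpp2 and Prlr were not analysed here.

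Deficient replicate 3 was the lowest of the deficient arrays in 34 of the 41, so leaving it out raises their differences by construction. The calls without it are therefore a description, and nothing is concluded from them. Without deficient replicate 3, 13 of the 41 were called higher and none lower in limma, where 0.236% of all genes were called higher. They were Steap1 (2.98, limma adjusted p = 0.00043), Htr2c (3.15), Otx2 (3.06), Ace (2.72), F5 (2.47), Krt18 (2.34), Aqp1 (2.31), Kcne2 (2.26), Cldn1 (2.22), Slc29a4 (2.07), Car12 (2.02), Sostdc1 (1.94) and Rdh5 (1.83). Without deficient replicate 1 or 2, 0 of the 41 passed in limma, where 0.0359% and 0.0154% of all genes were called higher. Without wild-type replicate 1, 2 or 3 of 12 weeks 0 of the 41 passed either, where 0.0205%, 0.0205% and 0.0103% of all genes were.

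The order of the 3 deficient arrays differed between the lists of neighbouring cells. Replicate 1 was the highest and replicate 3 the lowest in 8 of the 10 choroid plexus genes and in 32 of the 41 others, against 17.8% of all genes. The same order was seen in 10 of 19 endothelial and mural, 5 of 19 fibroblast and 5 of 15 astrocyte genes. Replicate 1 alone was the highest in 9 of the 10, 33 of the 41, 16 of 19 endothelial and mural and 13 of 15 astrocyte genes. It was the highest in 8 of 19 fibroblast and 4 of 25 ependymal genes. A high replicate 1 was thus not particular to the choroid plexus lists. In 25 genes of ependymal cells and motile cilia that order was seen in 3, while replicate 2 was the highest and replicate 1 the lowest in 16, against 14.8% of all genes. The ependymal mean was 5.31 to 5.74 in wild-type arrays and 5.62, 6.27 and 5.97 in deficient replicates 1, 2 and 3, and replicate 1 lay within the wild-type range. Mia, the ependymal gene with the highest signal, was at 7.22 to 8.51 in wild-type and 8.95, 9.81 and 9.10 in deficient mice, and Tmem212 at 7.23 to 8.38 and 7.95, 9.18 and 8.87. In limma 0 of 25 were called, against 0.0256% of all genes, and the median difference was 0.34. At an unadjusted p under 0.05, 10 were higher and none lower, against 3.65% of all genes higher, and 5 were without overlap, all higher, against 5.27% of all genes. Foxj1 was not analysed here.

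Stromal fibroblast genes averaged 6.02, 5.93 and 5.91 in the deficient arrays, above the wild-type range of 5.26 to 5.76, with 0 of 19 called in limma (0.0256% of all genes), 5 higher (3.65% of all genes) and 1 lower at an unadjusted p under 0.05, and a median of 0.32. Igf2, their gene with the highest signal, was at 7.87 to 9.08 in wild-type and 10.43, 9.67 and 8.88 in deficient mice. Endothelial and mural genes averaged 7.29, 6.79 and 6.68 against 6.29 to 7.06, astrocyte genes 9.06, 8.38 and 8.71 against 8.44 to 9.52, and microglial genes 6.73, 7.65 and 7.15 against 4.86 to 8.23. None of these lists had a called gene between the genotypes. The part of ependymal, fibroblast and other cells in the differences of the 10 choroid plexus genes was not tested.

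**Figure D3:**
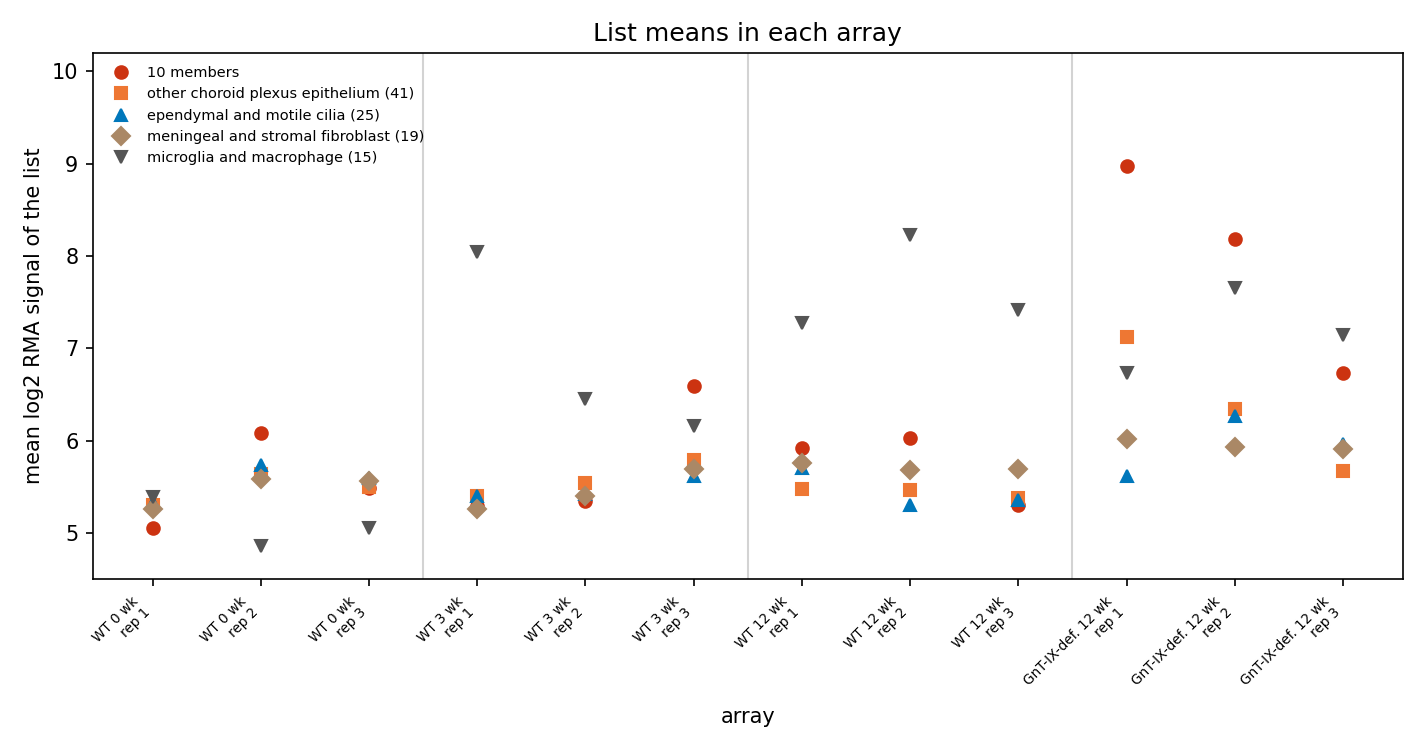
Mean log2 signal of 5 gene lists (y axis) in each of the 12 arrays (x axis, grouped by genotype and weeks of diet); the number of genes per list is in the legend, and points that coincide hide each other. The 10 choroid plexus genes reach 8.98 and 8.19 in deficient replicates 1 and 2, and the 41 others follow at 7.12 and 6.34, while the ependymal list is highest in replicate 2.

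**Figure D4:**
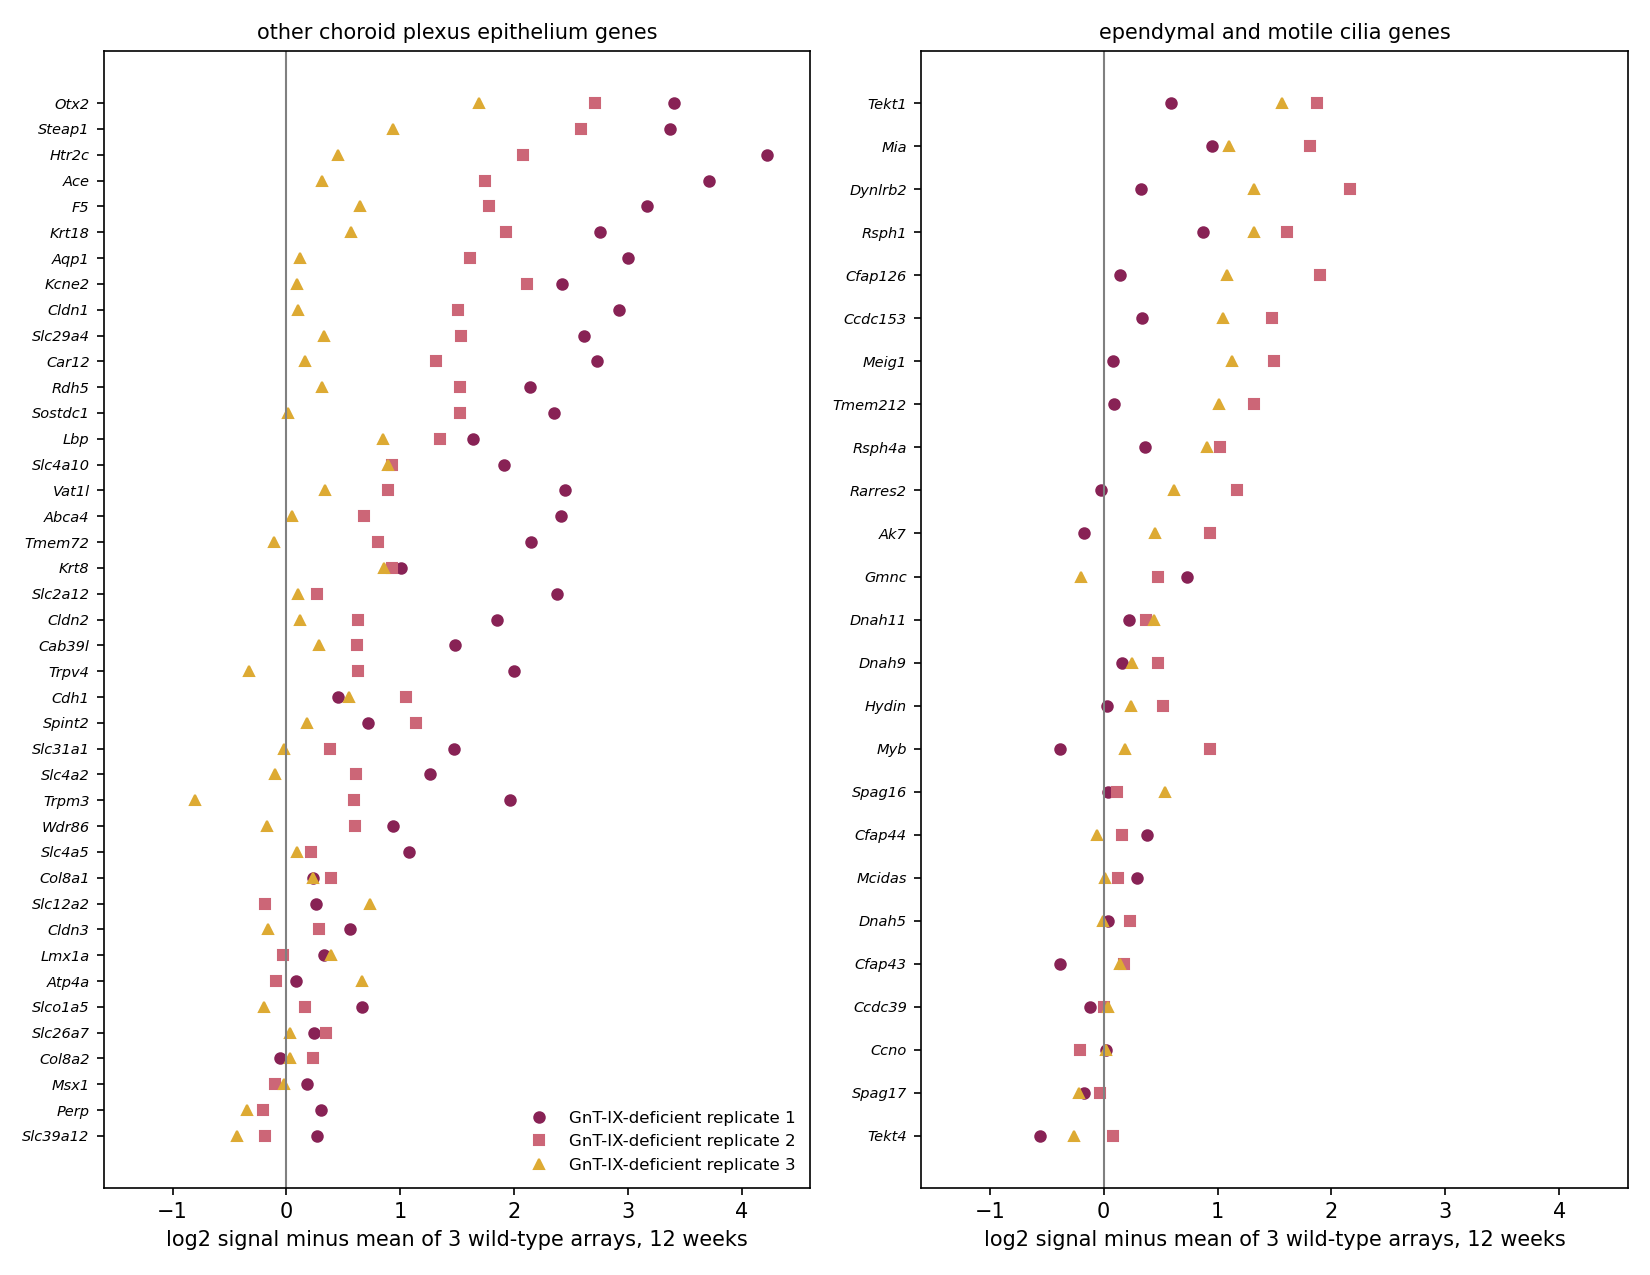
Log2 signal of each deficient array minus the mean of the 3 wild-type arrays of 12 weeks (x axis) for 41 other choroid plexus genes (left) and 25 ependymal genes (right), 1 row per gene, sorted by the mean difference. Replicate 1 (circles) lies to the right and replicate 3 (triangles) to the left in 32 rows of the left panel and 3 rows of the right panel.

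The genes most like the 10 were found by the correlation of each with their mean over the 12 arrays, after centring each of the 10. The 12 nearest were Krt18 (r = 0.973), a keratin of simple epithelia, Dydc2 (0.970), Steap1 (0.965), a metalloreductase family member, F5 (0.962), coagulation factor V, Smim22 (0.953), Kcne2 (0.953), the calcium pump Atp2b3 (0.944), the adaptor Traf3ip2 (0.939), the ATP synthase subunit Atp5g1 (0.938), the cytochrome oxidase subunit Cox7a1 (0.931), the peptidase Ace (0.928) and another oxidase subunit, Cox8b (0.921). These values span all 4 groups. Over the 9 wild-type arrays the same 12 had r from 0.436 (Atp5g1) to 0.851 (Kcne2). Those arrays were part of the ranking that picked the 12, so these r are a description and no separate check. Smim22 lay at 5.24 to 6.23 in wild-type and at 8.61, 8.07 and 6.49 in deficient mice, and Cox8b at 3.73 to 4.44 and at 6.71, 6.03 and 4.23.

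The partners of the 10 genes in their own pathways were read from lists given for each, and none held a gene called between the genotypes in limma, where 0.0256% of all genes were. In wild-type mice some changed with weeks of diet. The counts that follow stand beside 3.24% of all genes called at 3 weeks and 2.64% at 12 weeks. Of 12 genes for thyroxine and retinol handling, beside Ttr, 3 fell at 3 weeks and none rose: Slco1c1, a thyroxine transporter (-1.64, limma adjusted p = 0.0177), Dio2, the deiodinase that activates thyroxine (-1.55, limma adjusted p = 0.0143), and the receptor gene Thrb (-0.93, limma adjusted p = 0.0170). None of the 12 was called at 12 weeks, and the median genotype difference of the list was -0.09.

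Of 10 folate genes, beside Folr1, the mitochondrial enzyme gene Mthfd2 rose at 3 weeks (1.47, limma adjusted p = 0.0103) and Aldh1l1, an astrocyte enzyme of folate metabolism, fell (-1.16, limma adjusted p = 0.0110). None was called at 12 weeks, and the median genotype difference was -0.02. Of 13 genes around Klotho, Adam10, a protease that sheds it, rose at 3 weeks (0.77, limma adjusted p = 0.0458), and the FGF receptor gene Fgfr2 fell at 12 weeks (-0.80, limma adjusted p = 0.0337). Their median genotype difference was 0.04, beside the 2.64 of Kl.

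Of 14 genes of the insulin-like growth factor axis, 2 rose at 3 weeks and 3 at 12 weeks, and none fell, against 3.24% and 2.64% of all genes called, whereas Igfbp2 fell at 12 weeks. Igf1, the ligand, rose by 1.61 (limma adjusted p = 0.0308) and by 2.40 (limma adjusted p = 0.00428), Igfbp3 by 1.42 at 3 weeks (limma adjusted p = 0.00612), and Igfbp7 and the protease gene Pappa by 0.82 and 1.35 at 12 weeks (limma adjusted p = 0.0359 and 0.0447). Between the genotypes their median was -0.15, with 2 higher at an unadjusted p under 0.05, against 3.65% of all genes. Of 9 sulfate genes, the anion exchanger gene Slc26a6 fell at 3 weeks (-0.84, limma adjusted p = 0.0334) and 12 weeks (-0.85, limma adjusted p = 0.0344), and Papss2, which makes the sulfate donor, fell at 3 weeks (-1.13, limma adjusted p = 0.00739). Their median genotype difference was -0.15, beside the 2.42 of Slc13a4.

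Relatives of the channels and regulators were read in the same way. Of 14 other inward rectifier genes none was called in any comparison, and the median genotype difference was -0.02, beside 2.04 for Kcnj13. Kcnj10 and Kcnj16, the astrocyte channels with the highest signals of that list, differed by -0.05 (SE 0.26) and -0.02 (SE 0.29). Of 4 other chloride intracellular channel genes, Clic4 rose at 3 weeks (0.69, limma adjusted p = 0.0399) and Clic1 at 12 weeks (1.15, limma adjusted p = 0.0358), and their median genotype difference was 0.13. Of 9 targets and relatives of Wfikkn2, none was called, with a median of 0.02 between the genotypes and 0.32 (SE 0.24) for Gdf11, one of its ligands. Of 10 calmodulins and partners of Calml4, none was called, the median was 0.06, and Calm3 and Calm2 differed by 0.26 (SE 0.17) and 0.14 (SE 0.16).

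Among the 41 other choroid plexus genes, 2 were called between 3 and 0 weeks in wild-type mice in limma, beside 3.24% of all genes. The bicarbonate transporter gene Slc4a10 rose by 1.17 (SE 0.26, limma adjusted p = 0.0231) and Slc39a12 fell by 1.20 (SE 0.23, limma adjusted p = 0.0102). Slc39a12 lay at 9.30 to 11.01 in the wild-type arrays. In the same comparison 8 of 15 astrocyte genes were called lower and 1 higher, and 3 of 10 neuron genes higher and 0 lower. The part of such cells in the changes of Slc4a10 and Slc39a12 was not tested. The call of Slc4a10 was lost when replicate 1 or 2 at 0 weeks, or replicate 2 or 3 at 3 weeks, was left out. That of Slc39a12 was lost when replicate 1 of either group was left out. None of the 41 was called between 12 and 0 or 12 and 3 weeks, where 2.64% and 0.082% of all genes were. An unadjusted limma p under 0.05 was seen for 4 and 6 of the 41, against 15.1% and 11.4% of all genes.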

How the data were processed

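The deposited log2 signals came from RMA in Affymetrix Expression Console 1.4, per the submitters' processing notes. RMA sets arrays to a like distribution and compresses differences of dim transcripts. Cells were freed with papain, Fc receptors were blocked, and RNA came from either miRNeasy or NucleoSpin kits, per the labels' protocols; the kit of each sample is not stated, so kits and groups cannot be told apart. The array files name no genome build.

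The table held 22206 clusters. By Entrez identifier, 19572 had 1 symbol and 2634 are unnamed here and were left out. For 55 genes with several clusters the brightest over 12 arrays was used, which left 19505 genes with no filter on dim ones. Two-sided tests used limma 3.58.1 (R 4.3.3; lmFit, eBayes) on all 12 arrays together, with a mean for each of the 4 groups, which leaves 8 residual degrees of freedom. P-values were adjusted over all genes (Benjamini-Hochberg) and read at 0.05. Differences are log2, with the SE of that fit. Relations to Ttr used Pearson's r and Spearman's rho with two-sided exact permutation over 362880 pairings (scipy 1.17.1), adjusted over 9 relations. Motifs were searched in RefSeq start regions of GRCm38.p6, without those on the chromosome of Ttr.

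The 10 genes and 18 further gene lists were chosen with earlier results of these data known. Named genes were the 10, some fixed markers, the 12 most alike, and from each list those past the threshold or with the highest signal. Same-numbered arrays of different groups had deviations correlated at -0.279 to 0.216, so the numbers were not taken as pairs. The fit was tested on simulated data, and no columns were identical. The alternatives were quantile normalization again, median centring, no dimmest 30% of genes, the mean of clusters, a trended robust variance, array weights, only the compared arrays, a replicate block and each array left out. Figures were drawn with matplotlib 3.10.9.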

Additional observations from a re-analysis of the deposited data

How the results depend on the processing

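In wild-type mice the count of the 10 genes called between 3 and 0 weeks was 0, and 1 (Igfbp2) with array weights or with only the compared arrays. Between 12 and 0 weeks it was 1, with a range of 0 to 1 when each array was left out. Of the 41 other choroid plexus genes, 2 were called between 3 and 0 weeks (0 to 2 with each array left out). That count was 3 with median centring, without the dimmest 30% of genes, with array weights or with only the compared arrays. None of the 41 was called between 12 and 0 weeks (1, Ace, with only the compared arrays) or between the genotypes (0 to 13 with each array left out). The relations to Ttr past the threshold numbered 1, but 0 after a further quantile normalization or without the 2 arrays farthest from its median, and 2 on differences from group means. Ecrg4 then had r = -0.00851 to Ttr without those 2 arrays. The median genotype difference of 2.23 lay at 1.71 to 2.75 under the alternatives. Taken as the median over same-numbered arrays it was 2.17. With the replicate number as a block in limma no call of the 10 or the 41 genes changed, Igfbp2 keeping its fall at 12 weeks (limma adjusted p = 0.0404). The sign of uncalled differences turned when single arrays were left out, with ranges of -1.99 to 1.12 (Ttr, 3 against 0 weeks), -0.52 to 1.99 (Ttr, 12 against 0), -0.37 to 2.72 (Ttr, 12 against 3), -0.40 to 0.08 (Folr1, 12 against 3), -0.13 to 0.52 (Kl, 3 against 0), -0.18 to 0.32 (Kcnj13, 3 against 0), -0.05 to 0.81 (Ecrg4, 3 against 0), -0.48 to 0.38 (Ecrg4, 12 against 3), -0.21 to 0.30 (Wfikkn2, 12 against 0) and -0.34 to 0.20 (Calml4, 12 against 0). Wfikkn2, 0.04 for 12 against 0 weeks, was -0.01 after a further quantile normalization and after median centring. The cause was not tested. Kl and Calml4 had no value without the dimmest 30% of genes. With 3 arrays in a group and no measure of background, dim genes and small differences are the least certain.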
